A study of Mus musculus with 10 samples.

Results

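The glutathione S-transferases (Gst), UDP-glucuronosyltransferases (Ugt) and sulfotransferases (Sult) are the main conjugating enzymes of liver. Their genes were taken as every array feature annotated with exactly 1 symbol starting with Gsta, Gstm, Gstp, Gstt, Gsto, Gstk, Gstz, Ugt1, Ugt2, Ugt3 or Sult, with the feature of the highest mean level standing for a gene. This gave 45 of 19938 genes: 19 Gst, 10 Ugt and 16 Sult genes. No Ugt1 gene was among them, because the Ugt1a genes of the mouse share a feature. The values came from livers of 10 male C57BL/6J mice, 8 weeks old when an adenovirus was injected into the tail vein, and examined in the fed state 3 weeks later. The Phf2 group (5 mice) received an adenovirus encoding Phf2, a histone demethylase, and the GFP group (5 mice) received one encoding the fluorescent protein GFP, so that all mice carried a viral vector. The labels call the expression in both groups liver specific, and the sources used here do not give the promoter that drove it in these adenoviruses. Each liver was read on 1 Affymetrix Gene ST array, and values are log2 after RMA, a normalization that brings all arrays to a like distribution. Log2 fold changes were taken as the Phf2 mean minus the GFP mean.

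Conjugation is the step in which a liver cell makes a foreign or endogenous compound more soluble, so that it can leave in bile or urine. Gst enzymes attach glutathione to reactive electrophiles, Ugt enzymes attach glucuronic acid from UDP-glucuronic acid, and Sult enzymes transfer sulfate from the donor PAPS to phenols, steroids and bile acids. Many Gst genes are induced by the transcription factor Nrf2 (gene Nfe2l2) under oxidative stress, and in mouse liver several genes of all 3 families are expressed at different levels in males and females.

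The feature of Phf2 itself read 6.31, 6.27, 6.58, 6.45 and 6.37 in the livers labelled Phf2 and 6.50, 6.54, 6.53, 6.32 and 6.34 in those labelled GFP (log2 fold change -0.05, adjusted p = 0.751 by limma). Whether this feature reads the delivered sequence is not given, so it did not check the labels, and the names Phf2 and GFP liver are those of the labels throughout. Arrays correlated at 0.973 to 0.9963. Phf2 replicates 1 and 5 lay at 6.38 and 4.26 on the first principal component, nearer to the GFP arrays (-22.5 to -14.1) than the other 3 Phf2 arrays (19.9 to 34.3). The hepatocyte markers (4 of 5 listed were measured) averaged 12.3 to 12.6 in Phf2 livers and 12.6 to 12.7 in GFP livers. Cps1 (-0.57) and Apoa1 (-0.21) were lower, while Alb (-0.01) and Ttr (-0.06) did not pass. Of the 5 Kupffer cell markers 3 were lower (Timd4 -1.59, Clec4f -0.54, Marco -0.37), while Vsig4 (-0.39) and Cd5l (0.24) did not pass. The mean of the 5 was 7.47 to 7.69 in Phf2 livers and 7.84 to 8.56 in GFP livers. Lymphocyte markers were higher for 3 of 5 genes (Cd3g 1.502, Nkg7 1.08, Cd3e 0.64), while Ms4a1 (0.36) and Cd79a (-0.10) did not pass. The means of the 5 were 5.22 to 6.03 in Phf2 livers and 4.58 to 4.99 in GFP livers. Of 2 erythroid markers Alas2 was lower (-0.89), of 5 endothelial ones Lyve1 was higher (0.51), and of 5 stellate cell ones Rgs5 was higher (0.42). By sign, 3 endothelial markers were above 0 and 2 below (Stab2 and Kdr, both -0.17), as were 3 and 2 stellate cell ones (Reln -0.23, Colec11 -0.05). Those below 0 did not pass, nor did any of 4 bile duct or 4 intestinal markers. Over all genes, 5.43% were higher and 4.24% lower by limma. Under the 21 alternatives the call was lost 13 times for Cps1, 12 for Marco, 8 for Apoa1 and 7 for Lyve1, mostly when a single array was left out. The mean of the 10 pancreatic markers varied within both groups, from 5.61 to 10.4 in Phf2 livers and from 5.90 to 12.0 in GFP livers. None of these markers passed. In whole liver RNA, fewer cells of a type and less RNA per cell cannot be told apart, and the part of these other cells in the values of the conjugating enzymes was not tested.

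Of the 45 conjugating enzyme genes, 15 passed the adjusted threshold of 0.05 (limma, Benjamini-Hochberg over all 19938 genes), 5 of them higher and 10 lower in Phf2 livers. This is 33.3% of the members, beside 9.67% of all genes tested. In the separate directions 5.43% of all genes were higher and 4.24% lower. By family, Gst genes had 4 higher and 2 lower members, Ugt genes 0 higher and 4 lower, and Sult genes 1 higher and 4 lower. At an unadjusted p under 0.05, 5 of the 10 Ugt genes passed, beside 22.2% of all genes at this limit, and each of the 5 was lower. The median log2 fold change was 0.02 over the Gst genes, -0.23 over the Ugt genes and -0.09 over the Sult genes, beside -0.01 over all genes. The sign of the Gst median turned under median centring and further quantile normalization, and the Sult median was -0.542 without the dim features. The 5 Phf2 values lay wholly above the 5 GFP values for 5 members (4.71% of all genes) and wholly below for 11 (4.36% of all genes). By the study's thresholds, 1.5-fold and an unadjusted p under 0.05, 2 members were higher and 7 lower, beside 3.54% of all genes in either direction. In at least 1 group, 34 of the 45 members had a mean above the median level of all array features (5.12), and these included all 15 that passed. Sult4a1 met this limit by its Phf2 mean (5.17) and not by its GFP mean (4.70). The 11 dimmer members were mostly Sult genes (9 of 16).

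**Figure D1:**
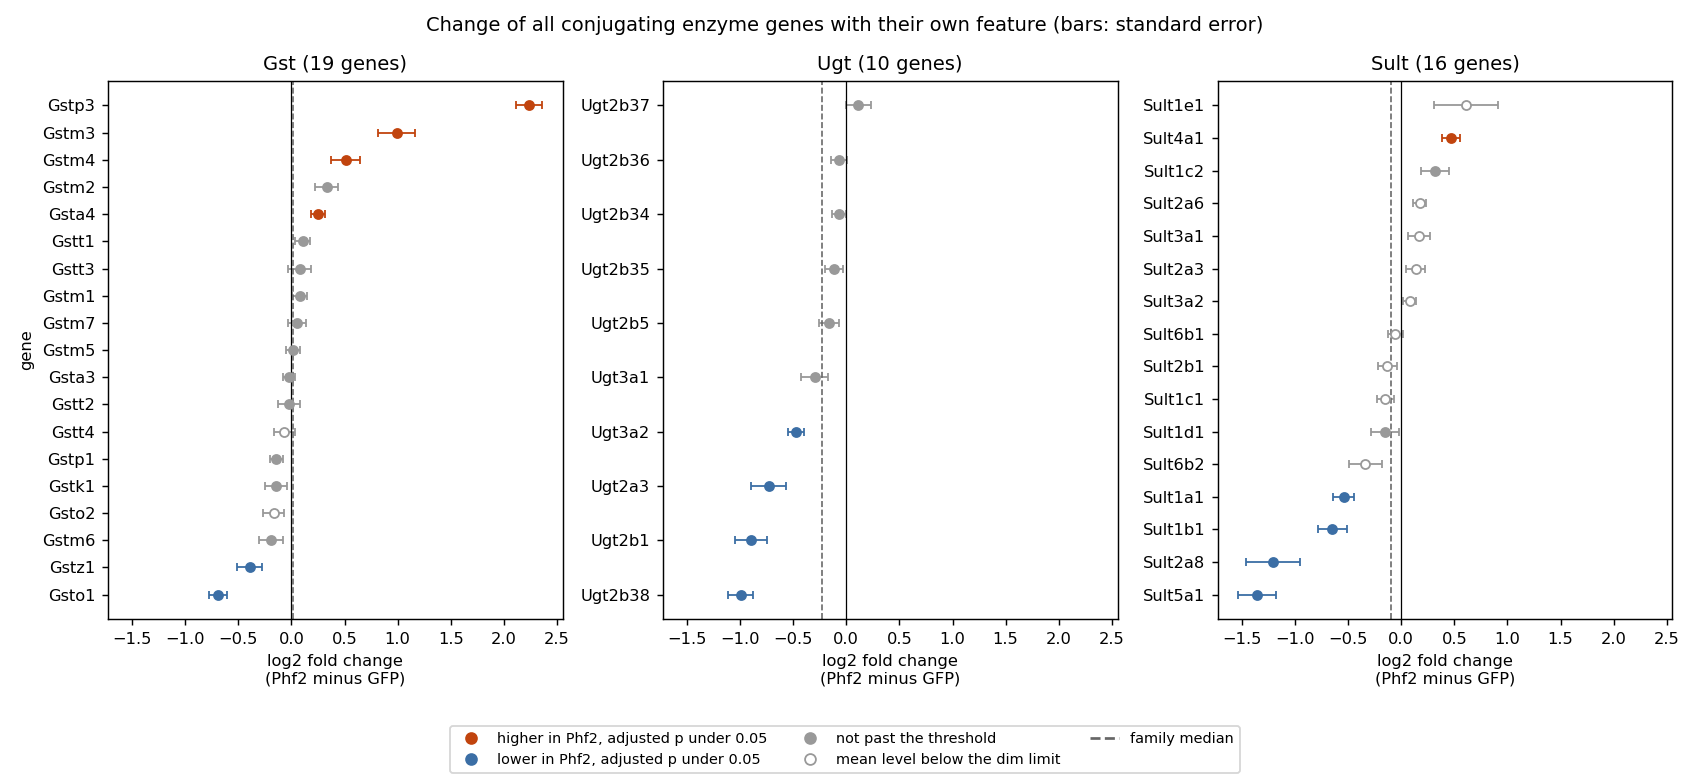
Log2 fold change (Phf2 minus GFP) of all 45 genes, by family, with its standard error. Colours mark the genes past the adjusted threshold and open circles the genes below the median level of all array features. Gstp3 stands at 2.24 at the upper end of the Gst genes, and 9 of the 10 Ugt genes lie below 0.

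Among the Gst genes the pi class held both the largest rise and a gene at the top of the intensity scale that did not pass. Gstp3 read 9.47, 9.48, 9.64, 9.68 and 9.93 in Phf2 livers and 7.55, 7.60, 7.09, 7.17 and 7.60 in GFP livers. The lowest Phf2 liver exceeded the highest GFP liver by 1.87 log2 units, and the 5 Phf2 values lay close together. Gstp3 averaged 9.64 ± 0.19 in Phf2 livers and 7.40 ± 0.25 in GFP livers (SD, n = 5 each), a 4.71-fold rise (log2 fold change 2.24, SE 0.12, adjusted p = 1.23e-06 by limma). Gstp1, the abundant pi class enzyme of male mouse liver, read 12.71, 12.62, 12.72, 12.49 and 12.67 in Phf2 livers and 12.78, 12.85, 12.74, 12.76 and 12.78 in GFP livers. These groups did not overlap, with Phf2 livers lower, but the log2 fold change of -0.14 did not pass (SE 0.06, adjusted p = 0.190). The 2 features that Gstp1 shares with Gstp2, a near-identical neighbour, had log2 fold changes of -0.003 and -0.007. Gstp1 and Gstp3 lie in 1 cluster on chromosome 19, with Gstp2 between them, and their changes differed by -2.38 (Gstp1 minus Gstp3, SE 0.14; exact permutation test, p = 0.00794, the smallest that 5 against 5 arrays allow; 0.0283 after adjustment over the 25 neighbouring pairs compared).

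The promoters of the Gstp3 and Gstp1 genes are shown because these neighbours changed differently. Each run covers 250 bases before the start of the gene to 50 after it, from RefSeq on assembly GRCm38.p6. Gstp3 is at chr19:4059398-4059697 and Gstp1 at chr19:4037863-4038162, both on the minus strand and printed 5′ to 3′ along the gene. Capitals mark GCGTG, the core that the dioxin receptor Ahr binds with its partner Arnt, and TGAGTCAGC, a form of the antioxidant response element that Nrf2 and AP-1 proteins bind, on either strand.
Gstp3: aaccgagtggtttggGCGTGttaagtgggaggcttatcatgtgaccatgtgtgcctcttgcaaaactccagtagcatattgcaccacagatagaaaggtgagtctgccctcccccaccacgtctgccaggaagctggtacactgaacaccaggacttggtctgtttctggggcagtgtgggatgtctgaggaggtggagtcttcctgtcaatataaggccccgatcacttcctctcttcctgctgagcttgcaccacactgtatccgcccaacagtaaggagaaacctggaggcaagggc
Gstp1: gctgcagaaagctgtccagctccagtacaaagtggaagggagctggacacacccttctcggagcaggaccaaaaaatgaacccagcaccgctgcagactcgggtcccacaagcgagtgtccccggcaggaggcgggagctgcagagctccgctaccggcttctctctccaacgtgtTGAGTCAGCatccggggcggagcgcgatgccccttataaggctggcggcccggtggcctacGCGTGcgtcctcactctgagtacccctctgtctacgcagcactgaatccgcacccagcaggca
Both windows held GCGTG once, at -235 from the start in Gstp3 and at -13 in Gstp1, and 32.4% of all 32851 promoter windows hold it. The 9 bases TGAGTCAGC, looked for after the windows had been seen, stood at -74 in Gstp1 and were in 0.414% of all windows. They also stood at -89 in the window of Gstp2, but were not in that of Gstp3. The windows of Gstp3 and Gstp1 were identical at 49.4% of aligned columns, whereas those of Gstp1 and Gstp2 were identical at 79.7%.

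The mu class lies in 1 cluster, and its members differed. Gstm3, the mu class gene with the largest change, read 10.99, 11.34, 11.62, 11.46 and 10.76 in Phf2 livers and 9.93, 9.92, 10.4, 10.4 and 10.5 in GFP livers. Phf2 replicates 1 and 5 were the lowest of their group and still exceeded every GFP liver. Gstm3 averaged 11.2 ± 0.35 and 10.2 ± 0.29 in Phf2 and GFP livers (SD, n = 5 each), a 1.99-fold rise (log2 fold change 0.99, SE 0.17, adjusted p = 0.0032 by limma). Its other feature gave a log2 fold change of 1.40 (SE 0.24), with 9.92 to 11.1 in Phf2 livers and 8.86 to 9.50 in GFP livers. Gstm4 read 7.62, 7.78, 7.81, 7.72 and 7.69 in Phf2 livers and 6.89, 7.19, 6.92, 7.31 and 7.74 in GFP livers. GFP replicate 5 lay inside the Phf2 range, so the groups overlapped (log2 fold change 0.51, SE 0.14, adjusted p = 0.033 by limma). Gstm2 (0.33, adjusted p = 0.074), Gstm1 (0.08), Gstm7 (0.05), Gstm5 (0.02) and Gstm6 (-0.19) did not pass. The change of Gstm3 exceeded that of its neighbour Gstm2 by 0.66 (exact permutation p = 0.0159, adjusted 0.0361) and that of Gstm6 by 1.18 (Gstm6 minus Gstm3 -1.18, exact permutation p = 0.00794, adjusted 0.0283). The difference between Gstm1 and Gstm4 (-0.44) had an adjusted exact p of 0.0763.

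In the alpha class, Gsta4, which conjugates the lipid peroxidation product hydroxynonenal, read 11.35, 11.49, 11.66, 11.58 and 11.42 in Phf2 livers and 11.2, 11.3, 11.2, 11.3 and 11.3 in GFP livers. The groups did not overlap, but the step was small (log2 fold change 0.25, SE 0.07, adjusted p = 0.036 by limma). Gsta3, also an alpha class enzyme of high signal, read 12.1 to 12.4 in Phf2 livers and 12.2 to 12.3 in GFP livers (-0.02, adjusted p = 0.881). Gsta1 and Gsta2, which are classical Nrf2-inducible genes, are read only by 4 features that they share with the predicted genes Gm10639 and Gm3776, so the signal belongs to the group and not to one of them. The feature with the largest change read 11.33, 11.45, 11.59, 11.51 and 11.16 in Phf2 livers and 10.3, 9.71, 10.2, 10.6 and 10.5 in GFP livers. Every Phf2 liver lay above every GFP liver on it. On the 4 features the log2 fold change was 0.89, 1.01, 1.11 and 1.14, with adjusted p between 0.0022 and 0.0052 over all features of the table, of which 4.79% passed.

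Of the remaining Gst classes, omega and zeta each had a lower member. Gsto1, which reduces dehydroascorbate and protein thiol adducts, read 7.19, 7.30, 7.61, 7.31 and 7.15 in Phf2 livers and 8.09, 7.90, 7.98, 8.04 and 8.02 in GFP livers. The groups lay apart, and the GFP values were tight (log2 fold change -0.69, SE 0.08, adjusted p = 0.00031 by limma, a 1.62-fold lower level). Its change differed from that of the adjacent and dim Gsto2 (-0.17) by -0.53 (exact permutation p = 0.0159, adjusted 0.0361). Gstz1, the maleylacetoacetate isomerase of tyrosine breakdown, read 9.48, 9.25, 9.08, 9.06 and 9.73 in Phf2 livers and 9.75, 9.68, 9.69, 9.74 and 9.72 in GFP livers. Phf2 replicate 5 lay inside the GFP range, and the call was close to the threshold (log2 fold change -0.39, SE 0.11, adjusted p = 0.048 by limma). The peroxisomal and mitochondrial Gstk1 (-0.14, adjusted p = 0.495) and the 4 theta class genes, Gstt1 (0.11, adjusted p = 0.455) among them, did not pass. The calls of Gstm4, Gsta4 and Gstz1 were each lost under 11 or 12 of 21 alternatives, among them leaving out any one of Phf2 replicates 2, 3 and 4 and GFP replicates 1, 2, 3 and 4, with adjusted p up to 0.312 for Gstm4, 0.359 for Gsta4 and 0.410 for Gstz1.

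**Figure D2:**
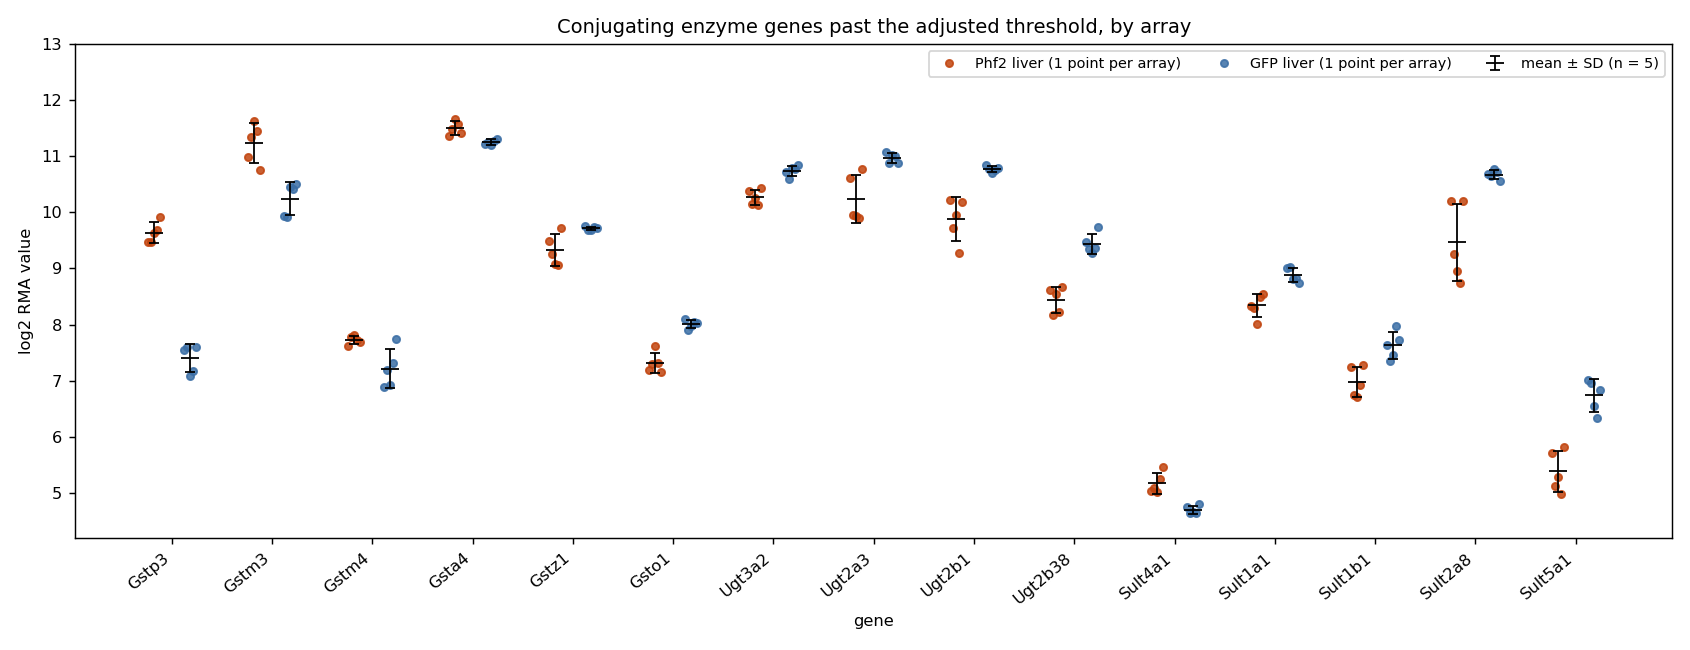
Log2 RMA values of the 15 conjugating enzyme genes past the adjusted threshold, 1 point per array, with the mean and SD of each group of 5; Phf2 stands left of GFP in each pair. The groups lie apart for every gene shown except Gstm4 and Gstz1, and the distance is greatest for Gstp3 (9.64 against 7.40).

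No Ugt gene was higher in Phf2 livers. Ugt2b38 read 8.62, 8.17, 8.54, 8.22 and 8.67 in Phf2 livers and 9.48, 9.35, 9.27, 9.36 and 9.73 in GFP livers. The groups lay apart by more than their own spread. Ugt2b38 averaged 8.44 ± 0.23 in Phf2 livers and 9.44 ± 0.18 in GFP livers (SD, n = 5 each), 1.99-fold lower (log2 fold change -0.99, SE 0.12, adjusted p = 0.00023 by limma). Ugt2b1, an abundant glucuronosyltransferase of mouse liver, read 10.2, 9.73, 9.95, 9.27 and 10.2 in Phf2 livers and 10.8, 10.8, 10.7, 10.8 and 10.8 in GFP livers. The Phf2 livers were lower and far more spread, SD 0.39 against 0.05 (log2 fold change -0.90, SE 0.15, adjusted p = 0.0025 by limma). Ugt2a3 read 10.6, 9.95, 9.94, 9.91 and 10.8 in Phf2 livers and 11.08, 10.87, 11.02, 10.996 and 10.88 in GFP livers. Phf2 replicates 1 and 5 came close to the GFP livers, while the other 3 lay together at 9.91 to 9.95 (log2 fold change -0.73, SE 0.16, adjusted p = 0.013 by limma).

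The other lower Ugt gene, Ugt3a2, belongs to a small family whose human members use UDP sugars other than UDP-glucuronic acid. It read 10.4, 10.1, 10.3, 10.1 and 10.4 in Phf2 livers and 10.7, 10.6, 10.8, 10.8 and 10.8 in GFP livers, without overlap (log2 fold change -0.47, SE 0.08, adjusted p = 0.0019 by limma). Both features that Ugt3a1 and Ugt3a2 share were lower too (-0.49 and -0.46, adjusted p = 0.013 and 0.015 over all features), while the own feature of Ugt3a1 was at -0.30 (adjusted p = 0.187). The feature shared by 8 Ugt1a genes, among them the bilirubin transferase Ugt1a1, read 9.68 to 9.76 in Phf2 livers and 9.60 to 9.79 in GFP livers (0.03, adjusted p = 0.854 over all features). It reads what these genes have in common, so a change of a single Ugt1a gene could be hidden in it. The feature of Ugt2a1 and Ugt2a2 was dim and read 2.79 to 2.89 in Phf2 livers and 2.80 to 3.02 in GFP livers.

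The lower Ugt2 genes were scattered within 1 cluster of 8 measured genes on chromosome 5. In gene order, the log2 fold changes were -0.07 for Ugt2b34, -0.90 for Ugt2b1, -0.11 for Ugt2b35, -0.07 for Ugt2b36, -0.16 for Ugt2b5, 0.11 for Ugt2b37, -0.73 for Ugt2a3 and -0.99 for Ugt2b38, and the 5 between and beside the lower genes did not pass. The change of Ugt2b1 differed from those of both its neighbours (Ugt2b34 minus Ugt2b1 0.83; Ugt2b1 minus Ugt2b35 -0.79), and Ugt2b37 differed from both of its own (Ugt2b5 minus Ugt2b37 -0.28; Ugt2b37 minus Ugt2a3 0.84), each at an exact permutation p of 0.00794 and 0.0283 adjusted. Between Ugt2a3 and Ugt2b38, both lower, the difference of 0.26 did not pass (adjusted exact p = 0.220). Of the 25 neighbouring pairs of the 3 families, 11 passed at the adjusted threshold, 3 of them with a dim gene (Gsto2, Sult1c1 or Sult2a6), where a fall could hardly be measured.

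Ugt2b38 and Ugt2b37 are shown with their promoters because their windows were the most alike among the 8 Ugt2 genes of the cluster, although Ugt2b38 was lower and Ugt2b37 did not pass (the difference between the changes of this pair, which are not neighbours, was not tested). The windows are again 250 bases before to 50 after the start, from RefSeq on assembly GRCm38.p6, at chr5:87424154-87424453 for Ugt2b38 and chr5:87254739-87255038 for Ugt2b37, both on the minus strand and printed 5′ to 3′ along the gene. Capitals mark the bases that differ between the aligned windows.
Ugt2b38: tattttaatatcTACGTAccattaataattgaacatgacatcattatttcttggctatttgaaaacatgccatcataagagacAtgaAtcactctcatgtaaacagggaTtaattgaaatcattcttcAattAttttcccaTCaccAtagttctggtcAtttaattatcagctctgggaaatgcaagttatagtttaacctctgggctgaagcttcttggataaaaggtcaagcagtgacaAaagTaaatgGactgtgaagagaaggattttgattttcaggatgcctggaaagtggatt
Ugt2b37: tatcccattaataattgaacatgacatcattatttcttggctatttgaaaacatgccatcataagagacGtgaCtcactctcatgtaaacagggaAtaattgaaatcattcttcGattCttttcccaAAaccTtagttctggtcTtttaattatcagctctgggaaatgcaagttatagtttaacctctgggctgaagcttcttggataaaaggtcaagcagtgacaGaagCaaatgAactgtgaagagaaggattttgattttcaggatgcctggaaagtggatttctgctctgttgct
The windows matched at 274 of 292 aligned columns (93.8%), and the differences were 12 single bases in each and a run of 6 further bases in Ugt2b38. The window of Ugt2b38 was identical to that of Ugt2b5 at 87.0% of columns, of Ugt2b36 at 64.9%, of Ugt2b1 at 50.0% and of Ugt2a3 at 50.0%. Thus Ugt2b38 was closest in these letters to genes that did not pass, and not closer than 50.0% to the 2 other lower genes. How far array probes tell such near copies apart is not given. TGACNNNGC is the core of the antioxidant response element, with N for any base. Neither it nor GCGTG was found in a Ugt2 window or in that of Ugt3a1, and Ugt3a2 had no window.

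**Figure D3:**
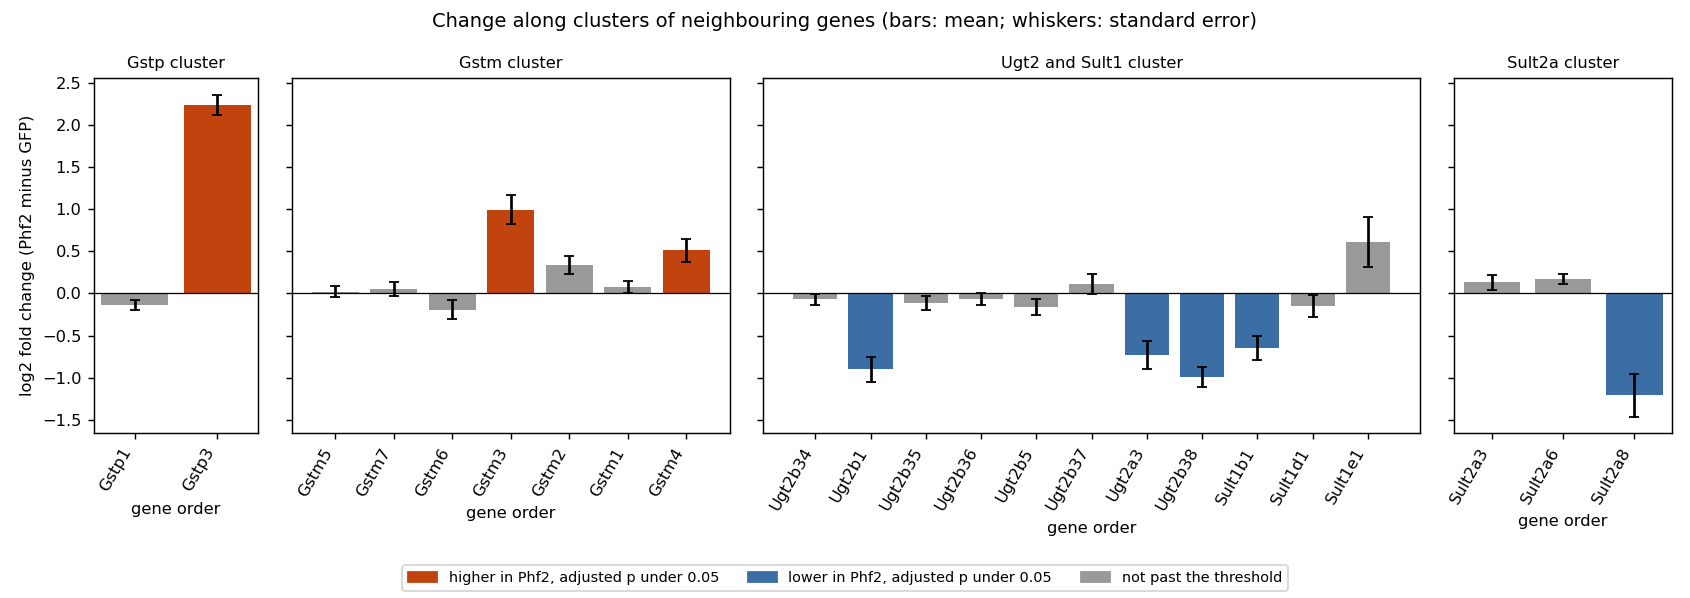
Log2 fold change (Phf2 minus GFP) of genes in chromosomal order in 4 clusters, with standard errors; genes are evenly spaced and colours mark those past the adjusted threshold. Changed genes stand beside grey ones that did not pass, such as Ugt2b37 (0.11) next to Ugt2a3 (-0.73).

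Among the Sult genes, the largest falls were in Sult5a1 and Sult2a8. Sult5a1, an orphan sulfotransferase, read 5.71, 5.13, 5.29, 4.97 and 5.82 in Phf2 livers and 7.02, 6.97, 6.54, 6.33 and 6.84 in GFP livers. The lowest GFP liver exceeded the highest Phf2 liver (log2 fold change -1.36, SE 0.18, adjusted p = 0.00046 by limma, 2.56-fold lower). Sult2a8, a bile acid sulfotransferase of mouse liver, read 10.2, 9.26, 8.95, 8.74 and 10.2 in Phf2 livers and 10.7, 10.6, 10.8, 10.7 and 10.6 in GFP livers. The 5 GFP livers had an SD of 0.08, whereas the Phf2 livers spread with an SD of 0.69, with replicates 1 and 5 nearest to GFP. Sult2a8 averaged 9.47 in Phf2 livers and 10.7 in GFP livers, 2.31-fold lower (log2 fold change -1.21, SE 0.25, adjusted p = 0.00998 by limma).

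In the Sult1 group, Sult1a1, the main phenol sulfotransferase, read 8.34, 8.30, 8.01, 8.50 and 8.55 in Phf2 livers and 8.999, 9.03, 8.81, 8.83 and 8.74 in GFP livers. All Phf2 livers were lower (log2 fold change -0.54, SE 0.10, adjusted p = 0.0047 by limma). Sult1b1, which sulfates thyroid hormone, read 7.24, 6.74, 6.72, 6.92 and 7.28 in Phf2 livers and 7.63, 7.35, 7.45, 7.98 and 7.73 in GFP livers, also without overlap (-0.65, SE 0.14, adjusted p = 0.011 by limma). It follows the Ugt2 cluster on chromosome 5, where its change differed by -0.50 from that of the adjacent Sult1d1 (-0.15; exact permutation p = 0.0159, adjusted 0.0361). The estrogen sulfotransferase Sult1e1 was dim and read 2.79, 2.85, 3.63, 4.70 and 2.86 in Phf2 livers and 2.68 to 2.84 in GFP livers (0.61, adjusted p = 0.261). Phf2 replicates 3 and 4 stood clearly above the GFP range, and the other 3 close to it. Sult1c2 was at 0.32 and the dim Sult1c1 at -0.15, and neither passed (adjusted p = 0.165 and 0.305), although the difference of 0.47 between them did (adjusted exact p = 0.0361). Under the methods' t-test with the same adjustment, Sult2a8, Sult1b1 and Ugt2a3 were not called, nor were Gstm4 and Gstz1.

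Sult4a1, a sulfotransferase known mainly from brain, was the only Sult gene with its own feature that was higher. It read 5.03, 5.09, 5.02, 5.25 and 5.46 in Phf2 livers and 4.75, 4.64, 4.66, 4.64 and 4.80 in GFP livers. The groups did not overlap, in a range near the median level of all array features (log2 fold change 0.47, SE 0.09, adjusted p = 0.0043 by limma). The dim Sult2a3 (0.14), Sult2a6 (0.17), Sult2b1 (-0.13), Sult3a1 (0.17, adjusted p = 0.392), Sult3a2 (0.08), Sult6b1 (-0.05) and Sult6b2 (-0.34, adjusted p = 0.232) did not pass.

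The largest change of any conjugating enzyme signal was on a feature shared by Sult2a1 and Sult2a2, hydroxysteroid and bile acid sulfotransferases that in mice are female-predominant. It read 6.32, 7.06, 6.91, 8.00 and 6.75 in Phf2 livers and 3.17, 3.19, 3.11, 2.87 and 3.31 in GFP livers. The GFP livers lay near the floor of the table, whose lowest value was 2.04, and the lowest Phf2 liver exceeded the highest GFP liver by 3.01 log2 units. The shared feature averaged 7.01 ± 0.62 in Phf2 livers and 3.13 ± 0.16 in GFP livers (SD, n = 5 each) (log2 fold change 3.88, SE 0.25, adjusted p = 2.32e-05 by limma over all features). No fold is given for it, since the GFP level may lie at background. A feature shared by Sult2a1, Sult2a2, Sult2a4 and Sult2a5 read 5.40, 5.85, 5.77, 5.74 and 5.04 in Phf2 livers and 4.58, 4.66, 4.06, 4.64 and 4.14 in GFP livers. It was also higher without overlap (1.14, SE 0.18, adjusted p = 0.0050 over all features). Within the same cluster on chromosome 7, Sult2a8 was thus lower while the shared Sult2a1 and Sult2a2 feature was higher. Sult2a6, the neighbour of Sult2a8, was dim in both groups (2.83 to 3.19 over the 10 arrays, on the log2 scale), where a fall could hardly be measured. The promoter window of Sult2a8 at chr7:14438502-14438801 was identical to those of Sult2a3, Sult2a4, Sult2a5 and Sult2a6 at 48.1% to 51.1% of columns. The windows of these last 4 genes were identical to each other at 79.9% to 91.8%. A further window of Sult2a8, upstream at chr7:14446538-14446837, was not compared.

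**Figure D4:**
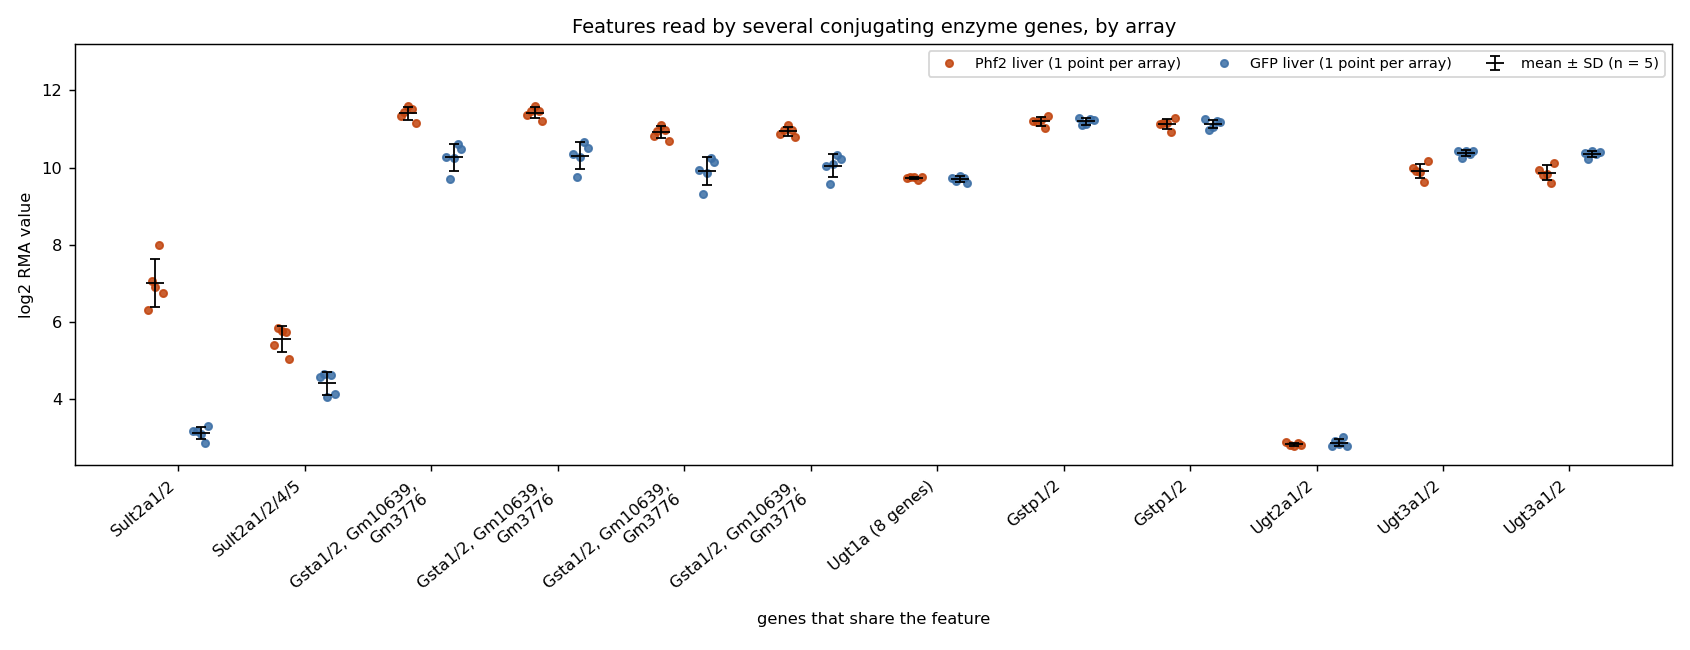
Log2 RMA values of the 12 features that several conjugating enzyme genes share, 1 point per array, with the mean and SD of each group of 5; Phf2 stands left of GFP. The Sult2a1 and Sult2a2 feature is at 7.01 in Phf2 livers and 3.13 in GFP livers, and the 4 features of the Gsta1 and Gsta2 group are higher by 0.89 to 1.14.

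The Phf2 livers differed among themselves. In 8 of the 10 lower genes, all but Gsto1 and Sult1a1, Phf2 replicates 1 and 5 both lay closer to the GFP livers than any of replicates 2, 3 and 4. The same held for 3 of the 5 higher genes, namely Gstm3, Gstm4 and Gsta4, but not for Gstp3 or Sult4a1. For Gstp3, replicate 5 had the highest value of all (9.93), so the order of the mice differed between genes. These 2 replicates are also those with the lowest pancreatic marker means (5.61 and 5.87) of the Phf2 group, whose others were 10.4, 9.66 and 8.34. With the pancreatic marker mean as a covariate, 6 members were higher and 10 lower, beside 1120 higher and 869 lower over all genes. Without the 3 arrays whose pancreatic mean exceeded 9 (Phf2 replicates 2 and 3 and GFP replicate 1), which left 7 arrays, 2 were higher and 3 lower among 595 genes called in all. Gstp3 (2.24 with all arrays), Gsto1, Ugt2b38, Sult4a1 and Sult5a1 kept their calls under all 21 alternatives, this one included, that give a value per gene at the same threshold. Sult4a1 did not pass the 1.5-fold limit, and it stayed under the filter on dim features only by its mean in Phf2 livers.

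Over the promoter windows of the families, which were found for 41 of the 45 genes (52 windows, since a gene can have several starts), the response element core TGACNNNGC stood in 3, those of Gsta3, Gstm5 and Gstm7, beside 12.4% of all windows. None of these genes passed. Gsta4, Ugt3a2 and Sult4a1, which passed, and Gstt2, which did not, had no window and so were not searched. GCGTG stood in 9 of the 52, beside 32.4% of all windows, with Gstp3 and Sult1b1 the genes among them that passed. Motifs were looked for on both strands, and elements farther from the start lie outside these windows.

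Enzymes that supply or follow conjugation changed in part. Among 17 genes for the cofactors, 3 were higher and 1 lower, beside 5.43% higher and 4.24% lower over all genes. Glutathione synthetase Gss (0.40, adjusted p = 0.041) and Ugp2, which makes UDP-glucose (0.30, adjusted p = 0.021), were higher, as was Hk2, a hexokinase that feeds this path (1.54, adjusted p = 0.0013). Cth, which makes cysteine, read 10.6, 9.30, 9.06, 9.12 and 10.6 in Phf2 livers and 10.6 to 10.9 in GFP livers (-1.01, adjusted p = 0.046 by limma). Phf2 replicates 1 and 5 lay within the GFP range, and the other 3 lay below it. The genes closest to the sulfate and glucuronide donors, Papss2 (-0.20), Papss1 (-0.04) and Ugdh (0.18), did not pass, nor did Gclc (0.37, adjusted p = 0.107), Gclm (0.01) or the cystine carrier Slc7a11 (1.56, adjusted p = 0.068). Of 21 alternatives, the call of Gss was lost under 11 (adjusted p up to 0.200) and that of Cth under 13 (up to 0.378), both without Phf2 replicate 2, 3 or 4 or GFP replicate 1, 2, 4 or 5, and that of Ugp2 under 4 (up to 0.163).

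Of 19 further conjugating and detoxifying enzymes, 5 were higher and 4 lower, beside 5.43% higher and 4.24% lower over all genes. The membrane-bound glutathione transferases Mgst2 (1.60, adjusted p = 0.0037) and Mgst3 (0.82, adjusted p = 0.00037) were higher, as were the quinone reductase Nqo1 (1.32, adjusted p = 0.0013), Hpgds (0.50) and the epoxide hydrolase Ephx1 (0.37), whereas Mgst1 was at 0.01. Lower were the acetyltransferase Nat1 (-1.20, adjusted p = 0.00025), the nicotinamide methyltransferase Nnmt (-1.06, adjusted p = 0.0038), the sulfur transferase Tst (-0.61, adjusted p = 0.015) and Baat, which joins bile acids to amino acids (-0.49, adjusted p = 0.0072). Of the 6 genes for deconjugation and export, the efflux pump Abcc4 was higher (5.38 to 6.15 in Phf2 livers and 4.81 to 4.92 in GFP livers, 0.92, adjusted p = 0.00045), while Abcc3 (-0.29, adjusted p = 0.033) and Abcc6 (-0.24, adjusted p = 0.048) were lower and the canalicular pump Abcc2 was at 0.01. The call of Abcc6 was lost under 14 of 21 alternatives (adjusted p up to 0.444) and that of Abcc3 under 10 (up to 0.141), among them the replicate block and leaving out Phf2 replicate 1, 3 or 4 or GFP replicate 5.

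Among 16 regulators of these families, 2 were higher and 3 lower, beside 5.43% higher and 4.24% lower over all genes. Nfe2l2, the gene of Nrf2, read 10.3, 10.3, 10.4, 10.3 and 10.2 in Phf2 livers and 9.09, 9.16, 9.49, 9.26 and 9.63 in GFP livers (log2 fold change 0.98, SE 0.10, adjusted p = 7.55e-05 by limma). Every Phf2 liver was above every GFP liver, replicates 1 and 5 included. Maff, which encodes a small Maf partner of Nrf2, was higher by 1.24, and Keap1, its inhibitor, was at 0.06 (adjusted p = 0.719). Rxra (-0.63, adjusted p = 5.69e-05), its partner receptor Nr1i3, known as CAR (-0.50, adjusted p = 0.012), and Cebpa (-0.32, adjusted p = 0.0497) were lower, while Nr1i2, known as PXR (-0.09), and Ahr (-0.13) did not pass. The call of Cebpa was lost under 12 of 21 alternatives, including the methods' t-test and leaving out any one array except Phf2 replicate 5 and GFP replicate 3 (adjusted p up to 0.323). Of the 8 family members listed as Nrf2-inducible with a feature of their own, Gstm3, Gstm4 and Gsta4 were higher and none was lower by limma. Over all genes these shares were 5.43% and 4.24%. At an unadjusted p under 0.05, Gstm2 was also higher and Gstp1 lower. The other 5 were Gstm1 (0.08), Gstm2 (0.33), Gstm6 (-0.19), Gstp1 (-0.14) and Ugt2b35 (-0.11). The median over these 8 genes was 0.16.

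**Figure D5:**
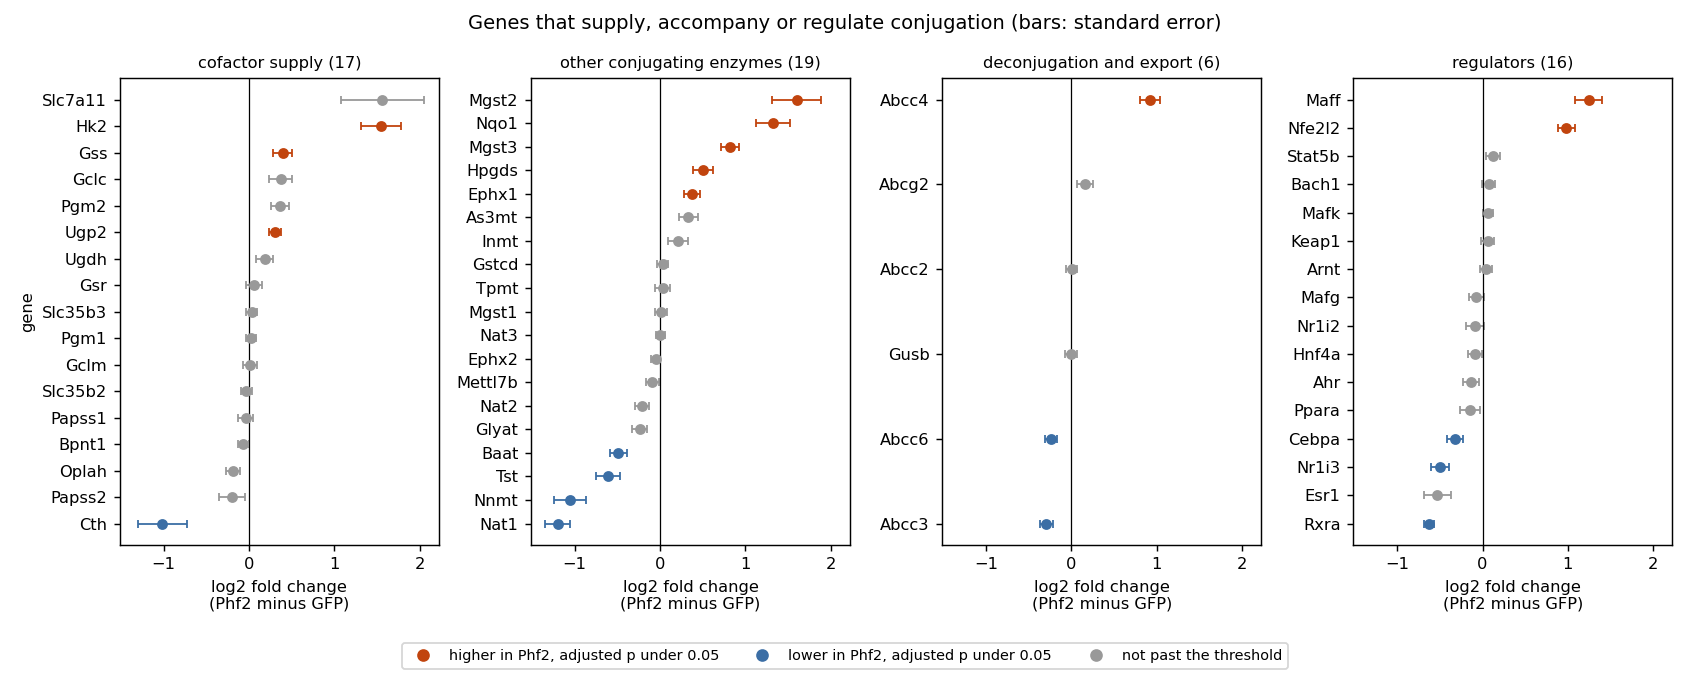
Log2 fold change (Phf2 minus GFP), with its standard error, of the genes measured in 4 lists of cofactor supply, other conjugating enzymes, deconjugation and export, and regulators; colours mark the genes past the adjusted threshold. Mgst2 (1.60), Hk2 (1.54) and Nqo1 (1.32) are among the higher genes, and Nat1 (-1.20), Nnmt (-1.06) and Cth (-1.01) among the lower ones.

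Sex-dependent liver genes were listed beside the families, since several conjugating enzymes are among them. Of 12 female-predominant genes measured on their own, 4 were higher and 0 lower by limma, beside 5.43% higher and 4.24% lower over all genes. At an unadjusted p under 0.05, 5 passed (22.2% of all genes passed this limit in either direction), each of them higher. Cyp2b9 (4.87), the organic anion transporter Slc22a27 (3.93), Cyp2b13 (2.62) and Acot3 (0.77) were higher. The 4 Sult members of the list, Sult2a3, Sult2a6, Sult3a1 and Sult3a2, had log2 fold changes of 0.08 to 0.17 and did not pass. Cyp3a44 (0.20), A1bg (0.10), Cyp3a16 (-0.02) and Cux2 (-0.13) did not pass either. Only 6 of the 12 genes had a mean above the median level of all array features in at least 1 group. Of 17 male-predominant genes 9 were lower, 1 was higher and 7 did not pass, beside 4.24% lower and 5.43% higher over all genes. Hsd3b5 (-4.93), Slco1a1 (-2.68) and Cyp7b1 (-2.39) had the largest falls, Ugt2b38 (-0.99) was the Ugt gene among the 9, and the carboxylesterase Ces2e (0.67) was higher. Hsd3b5 read 8.00, 5.74, 5.45, 3.83 and 7.50 in Phf2 livers and 10.9 to 11.2 in GFP livers, with Phf2 replicates 1 and 5 again the highest of their group.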

How the data were processed

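Liver RNA of 10 male mice was read on 1 array each, 5 labelled Phf2 and 5 labelled GFP, and samples were grouped by these labels. The authors normalized the arrays with RMA and used Partek for their statistics, as the submitters' processing notes name without versions, and deposited log2 values for 35556 features. The methods name a human array, whereas the features carry numbers of a mouse Gene ST array, and the sources used here name no genome build. Features were named through the platform annotation. Of these, 21789 had 1 symbol, 1621 several and 12146 none, and 21698 of the single-symbol features matched the RefSeq table of GRCm38.p6 by gene number, which served for names and gene order only. Of a gene's features (999 genes had several) the one with the highest mean stood for it. Features with several symbols were given as shared features.

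The Phf2 and GFP arrays were compared without covariates by lmFit and eBayes of limma 3.58.1, run in R 4.3.3. Benjamini-Hochberg adjustment ran over 19938 genes, or over all features for shared ones, at a threshold of 0.05. Differences between neighbouring genes of a family, at most 2 places apart on a chromosome, were tested per array with two-sided exact permutation tests over the 252 splits of 5 and 5 (SE from the group variances), adjusted over 25 pairs. The genes named are every conjugating enzyme past the threshold, the one with the smallest p of each subfamily without such a gene, the called genes with the 3 largest rises and the 3 largest falls of each list, the regulators Nfe2l2, Keap1, Nr1i2, Nr1i3 and Ahr, and Phf2. Other members and list genes are named to account for the families. The families and lists were chosen with earlier results of these data known. Promoter windows are 300 bases of RefSeq, compared by global alignment with free end gaps (Biopython 1.88). TGACNNNGC and GCGTG were searched as planned, and TGAGTCAGC was added after the windows were seen.

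The alternatives were the methods' t-test (the stated analysis of variance, which for a pair of groups is the same test), an intensity trend, array weights, a filter on dim features, further quantile normalization, median centring, all features, averaging the features of a gene, a block for replicate number, other thresholds, and leaving out each array. A pancreatic marker covariate and a fit without the 3 arrays whose pancreatic marker mean exceeded 9 were added after the data were seen. The script was tested on simulated data. Precision is limited by the number of arrays, and the spread behind each p-value is that between these mice. Protein sequences were not used here.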

Additional observations from a re-analysis of the deposited data

Results flagged for a closer look

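The 85 genes checked were the conjugating enzyme genes and the further genes picked by the naming rule given above. Other genes of the lists were not checked. In 7 of 170 groups of 5 arrays checked, 1 array stood apart from the other 4 by more than Dixon's critical value for the gap over the range. Chance flags about 1 in 20 groups. In Phf2 livers, replicate 4 was high for Sult2a3 (3.51, next 3.24) and Sult3a1 (3.26, next 2.88), both dim, and replicate 3 was high for the stellate cell marker Rgs5 (8.70, next 8.52). In GFP livers, replicate 4 was high for Sult6b2 (4.29, next 3.61) and Mgst2 (5.78, next 5.03), replicate 5 was low for Sult2b1 (3.88, next 4.07), and replicate 3 was high for the Kupffer cell marker Timd4 (8.45, next 7.53).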

How the results depend on the processing

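Each of the 15 called conjugating enzyme genes kept its direction under every alternative run. The Gst median log2 fold change, near 0, ranged from -0.0147 to 0.0526 and changed sign, and the Ugt median log2 fold change ranged from -0.295 to -0.162. The 4 higher Gst genes became 2 under median centring, all features, the study's thresholds (1.5-fold and unadjusted p under 0.05) and an adjusted p under 0.01, and 2 to 5 when single arrays were left out (5 without Phf2 replicate 1). The 2 lower Gst genes became 1 under the methods' t-test, all features, the replicate block, the study's thresholds and an adjusted p under 0.01, and 1 to 2 when single arrays were left out. The arrays whose omission lost Gstm4 and Gsta4 were Phf2 replicates 2, 3 and 4 and GFP replicates 1, 2, 3 and 4, and Gstz1 was also lost without GFP replicate 5. The higher Sult count of 1 became 2 with further quantile normalization or an adjusted p under 0.10, and 0 under the study's thresholds, since Sult4a1 rose less than 1.5-fold. The lower Sult count of 4 became 2 under the methods' t-test, which lost Sult2a8 and Sult1b1. The Sult median log2 fold change of -0.09 became -0.542 without dim features, a filter that leaves fewer Sult genes. Without the 3 arrays high in pancreatic markers, a choice made after seeing the data that leaves 7 arrays, 1 Gst gene, Gstp3, and 1 Sult gene, Sult4a1, were higher, and 1 Gst, 1 Ugt and 1 Sult gene were lower. Over all genes, 1083 were higher and 846 lower (56.1% higher), against 829 and 959 (46.4%) after median centring, 1024 and 1066 (49.0%) after further quantile normalization, 694 and 616 by the methods' t-test, 475 and 231 under the study's thresholds, 523 and 399 at an adjusted p under 0.01, and 365 and 230 without the arrays high in pancreatic markers. Same-numbered Phf2 and GFP arrays did not deviate together (correlations of -0.29 to -0.04), so the numbers were not taken to pair the mice. With the replicate block, 4 members were higher and 9 lower, with 855 and 659 over all genes. Signal over background limits the 11 dim members.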
